A study of Rattus norvegicus with 15 samples.

Results

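The genes followed here are switched on by interferon, and were measured in the small intestine of rats. They are the regulator Irf7, the ubiquitin-like modifier Isg15, the tetratricopeptide proteins Ifit1, Ifit2 and Ifit3, the oligoadenylate synthetase genes Oas1a and Oasl, and the dynamin-like GTPase genes Mx1 and Mx2. Every array spot outside the controls that carried one of these gene names was taken, which gave 10 probes of 9 genes among 41012 probes; Ifit2 alone had 2 probes, which were kept apart. The genes were picked with their levels on these arrays already known, so those levels and the differences between groups are given as a description without a test.

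Whole-genome expression was measured on 15 one-colour arrays, 5 for each of 3 groups of male rats. Wistar rats were the normal, unoperated controls, whereas the other 2 groups were Goto-Kakizaki (GK) rats, a nonobese strain with type 2 diabetes that was bred from Wistar stock. GK-Sham-PF rats had a sham operation and were pair-fed, and GK-S-30 rats had Roux-en-Y gastric bypass with a Roux limb of 30 cm; GK rats were operated on at 16 wk of age and sampled 14 wk later after an overnight fast. The tissue was a piece of the Roux limb near its join with the stomach in GK-S-30 and the matching piece of jejunum in the other groups, with RNA taken from the whole wall. Strain, diabetes, sham operation and pair-feeding change together between Wistar and GK-Sham-PF and cannot be told apart there. The sources do not spell out that each array came from its own rat. The errors and p-values therefore measure the spread between these samples only. The upper quartile of the signal lay between 302 and 357 on 13 arrays, but at 207 on Wistar replicate 3 and 208 on GK-Sham-PF replicate 5, and 66.7% to 74.8% of probes were well above background. The arrays sat on 4 slides: slide A held Wistar replicates 2 to 5, slide B Wistar replicate 1 with GK-Sham-PF replicates 1 to 3, slide C GK-Sham-PF replicates 4 and 5 with GK-S-30 replicates 1 and 2, and slide D GK-S-30 replicates 3 to 5. No slide held both Wistar and GK-S-30.

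Interferons are released when cells sense foreign nucleic acid, and they act through receptors that engage the kinases of the JAK family and transcription factors of the STAT and IRF families. These factors bind a short promoter element, the interferon-stimulated response element (ISRE), and turn on antiviral genes; IRF7, itself an induced gene, feeds back on the production of type I interferon. In the gut, type III interferon acts mainly on the epithelium, and a low level of interferon-stimulated genes is maintained there by signals from the microbiota.

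The probes define what was measured, so the 60-base sequences of 6 of them are shown, those of the regulator, the modifier and the Ifit and Oas genes with the widest contrasts between groups. Positions are in rat genome build rn4, as the array annotation gives them. The Irf7 probe lies at chr1:201456889-201456948 on the minus strand, the Isg15 probe at chr5:173034674-173034733 on the minus strand, and the Oas1a probe at chr12:36816612-36816671 on the plus strand. The Ifit probes lie on the plus strand, at chr1:238563700-238563759 (Ifit2, A_44_P410016), chr1:238574983-238575042 (Ifit3) and chr1:238610083-238610142 (Ifit1). The Oas1a probe is annotated to transcripts of Oas1a and of its near copy Oas1k, which it cannot tell apart.
Irf7: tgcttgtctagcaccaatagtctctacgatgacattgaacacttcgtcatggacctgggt
Isg15: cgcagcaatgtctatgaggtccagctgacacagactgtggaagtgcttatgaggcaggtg
Ifit1: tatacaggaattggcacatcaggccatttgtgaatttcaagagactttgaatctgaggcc
Ifit2 (A_44_P410016): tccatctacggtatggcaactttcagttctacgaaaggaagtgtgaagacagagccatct
Ifit3: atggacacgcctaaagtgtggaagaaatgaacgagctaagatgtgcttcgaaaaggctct
Oas1a: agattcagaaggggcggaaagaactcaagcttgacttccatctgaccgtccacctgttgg

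The Ifit genes are neighbours: 9845 bases separate the Ifit2 probe A_44_P696994 from the Ifit3 probe, and 35040 bases separate the Ifit3 probe from the Ifit1 probe. Mx1 and Mx2 probes are 129229 bases apart on chromosome 11. In both GK groups Ifit2 and Ifit3 had lower means than in Wistar, whereas Ifit1 had a higher mean. In the RefSeq annotation Ifit1 lies within the span of a further family member, Ifit1bl.

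Promoters in the RefSeq table (build GRCr8) were found for 5 of the 9 genes, Irf7, Ifit3, Oas1a, Oasl and Mx1. The 250 bases before the start were searched on both strands for the ISRE, spelled GAAANNGAAA or TTTCNNTTTC, and for the gamma-activated site (GAS), spelled TTCNNNGAA on either strand. The ISRE letters were in 3 of the 5 windows (Irf7, Ifit3 and Oas1a), against 1140 of the 33469 promoters in the table (3.41%). The GAS letters were in 1 of the 5 (Oas1a), against 2566 of all promoters (7.67%). The start is that of the table's entry, which is the outer end of the annotated gene for Ifit3 but not for the other 4. The stretches that hold the ISRE are shown with the element in capitals; the 2 matches of Oas1a overlap.
Irf7, chr1:205800083-205800092, minus strand, 59 bases before the entry's start: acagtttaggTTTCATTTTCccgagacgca
Ifit3, chr1:241527282-241527291, plus strand, 34 bases before the start: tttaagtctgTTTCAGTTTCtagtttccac
Oas1a, chr12:41330425-41330434, plus strand, 31 bases before the entry's start: cccctctcggGAAATGGAAActgaaaatct
Oas1a, chr12:41330431-41330440, plus strand, 25 bases before the entry's start: tcgggaaatgGAAACTGAAAatcttgttcc
The window of Ifit3, the gene with the most uneven levels after bypass, is given whole up to the base before the start, chr1:241527076-241527325 on the plus strand, again with the ISRE in capitals.
Ifit3 upstream: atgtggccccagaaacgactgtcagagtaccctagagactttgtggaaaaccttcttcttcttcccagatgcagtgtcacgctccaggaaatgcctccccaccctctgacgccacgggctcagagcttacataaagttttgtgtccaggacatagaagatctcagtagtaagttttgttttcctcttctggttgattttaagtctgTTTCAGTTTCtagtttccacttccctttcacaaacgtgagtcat

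Levels below are log2 intensities after quantile normalization, and a difference of 1 is a doubling of signal. Each probe is compared only with itself, since intensities of different probes are not on a common scale. Both GK groups had lower mean levels than Wistar for Irf7, Isg15, both Ifit2 probes, Ifit3 and Oas1a, and a higher level of Ifit1. In GK-Sham-PF the mean signal of Isg15 was 3.19-fold lower than in Wistar, that of Oas1a 2.25-fold lower and that of Irf7 1.54-fold lower, with errors given below for each gene. Between bypass and sham, Oas1a was 1.59-fold higher after bypass without overlap, whereas Irf7, Isg15, Ifit1, Ifit2 and Ifit3 overlapped. Because the tissue is a whole wall, fewer cells of a type and less RNA per cell cannot be told apart.

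**Figure D1:**
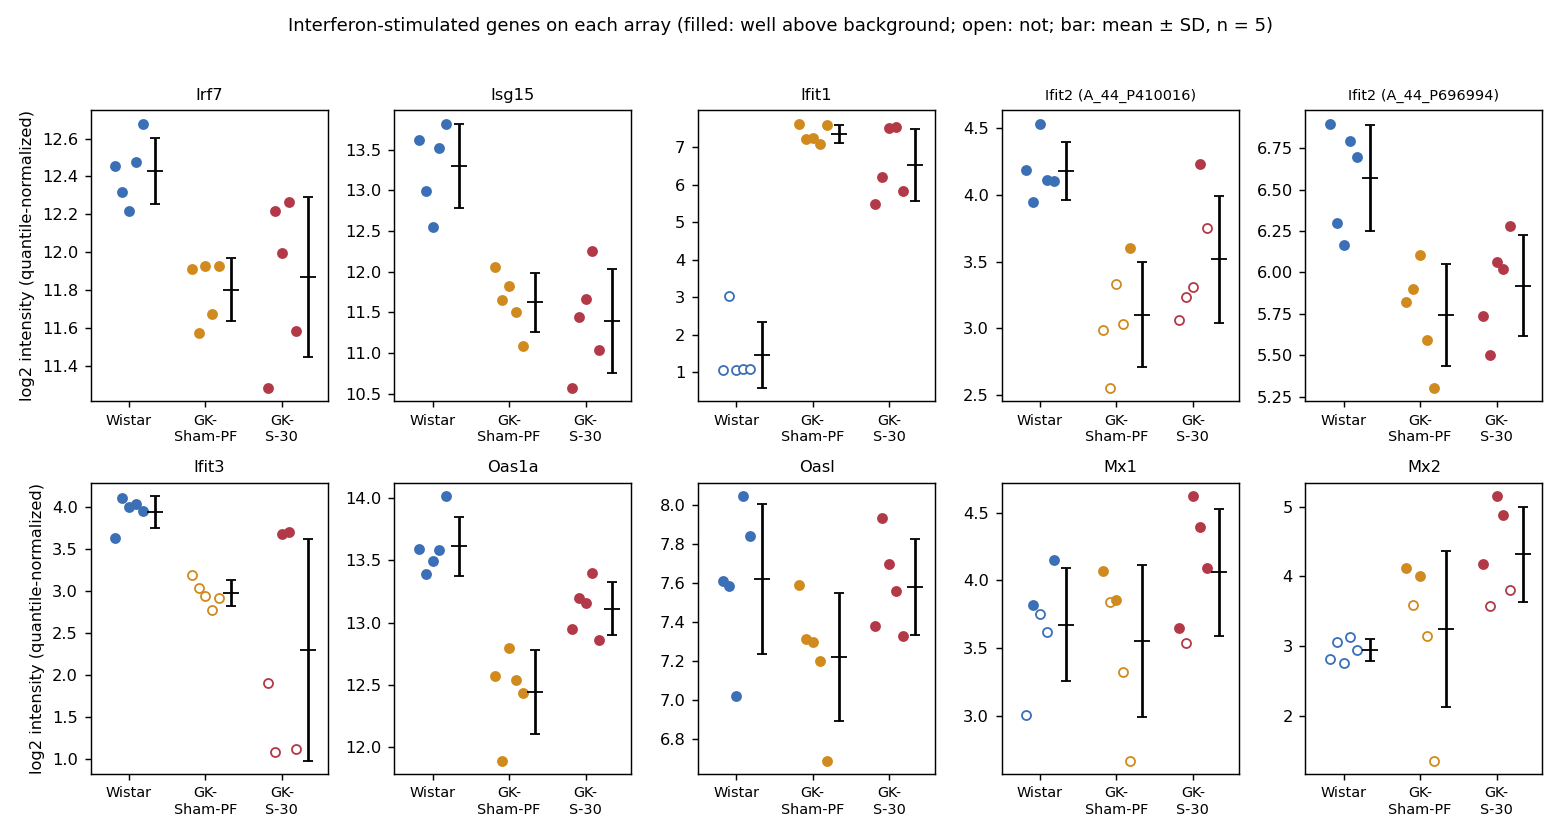
Quantile-normalized log2 intensity of each of the 10 probes (vertical axes, 1 scale per panel) on each array of the 3 groups; filled points are well above background, open points are not, and bars give mean ± SD (n = 5). Irf7, Isg15, Ifit2, Ifit3 and Oas1a are lower in GK-Sham-PF than in Wistar, Ifit1 is well above background in both GK groups alone, and Mx1 and Mx2 scatter around the background level.

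Irf7, the regulator, had levels of 12.46, 12.32, 12.22, 12.47 and 12.68 in Wistar replicates 1 to 5. In GK-Sham-PF the levels were 11.91, 11.57, 11.93, 11.68 and 11.93. In GK-S-30 they were 11.28, 12.22, 12.00, 12.27 and 11.58. All 5 sham arrays were below all 5 Wistar arrays, whereas GK-S-30 was spread wider and its replicate 4 alone reached the Wistar range. Group means were 12.43 ± 0.17 (SD, n = 5), 11.80 ± 0.17 and 11.87 ± 0.42, so that the difference in log2 level was -0.63 (SE 0.17) for GK-Sham-PF versus Wistar and 0.07 (SE 0.17) for GK-S-30 versus GK-Sham-PF. Within slide B the first of these was -0.65, and within slide C the second was -0.05.

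Isg15 encodes a ubiquitin-like protein that is attached to other proteins in infected cells. Wistar levels were 13.62, 12.99, 12.55, 13.52 and 13.82 in replicates 1 to 5. GK-Sham-PF levels were 12.06, 11.65, 11.82, 11.51 and 11.09, and GK-S-30 levels were 10.58, 11.44, 11.67, 12.25 and 11.04. Every GK array, operated or sham, was below every Wistar array, and the 2 GK groups overlapped. The mean fell from 13.30 ± 0.52 (SD, n = 5) to 11.63 ± 0.36 and 11.40 ± 0.63, which is a log2 difference of -1.67 (SE 0.30) between GK-Sham-PF and Wistar and of -1.91 (SE 0.30) between GK-S-30 and Wistar. The sham difference was -1.78 within slide B.

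Ifit1 binds RNA that lacks the cap methylation of host messages. Its probe was not well above background on any of the 5 Wistar arrays, with levels of 1.06, 3.02, 1.04, 1.07 and 1.08. GK-Sham-PF had 7.63, 7.22, 7.26, 7.09 and 7.60, well above background on 5 of 5 arrays. GK-S-30 had 5.47, 6.22, 7.52, 7.55 and 5.85, also on 5 of 5. The groups of the 2 strains did not overlap at all, while GK-S-30 replicates 3 and 4 lay within the sham range and its replicates 1, 2 and 5 lay below it. Since Wistar has only an upper bound here, the mean GK level is set against the higher of the dim signal and the lowest signal well above background on each Wistar array: Ifit1 was at least 16.4-fold higher in GK-Sham-PF and at least 9.15-fold higher in GK-S-30. Measured means were 1.45 ± 0.87 (SD, n = 5) in Wistar, 7.36 ± 0.24 in the sham group and 6.52 ± 0.96 after bypass. The log2 difference between the GK groups was -0.84 (SE 0.43), and within slide C it was -1.50. With another background correction (normexp) the log2 distance from Wistar shrank to 1.72 and 1.25 in the 2 GK groups, with the same sign. The 2 lower bounds therefore hold for the main processing only.

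Ifit2, a relative of Ifit1 that also restricts viruses, was read by 2 probes. With probe A_44_P410016, Wistar had 4.19, 3.95, 4.53, 4.11 and 4.11, all well above background. GK-Sham-PF had 2.99, 2.56, 3.33, 3.03 and 3.60, of which only replicate 5 was well above background, and GK-S-30 had 3.06, 3.23, 3.31, 4.23 and 3.75, of which only replicate 4 was. The sham arrays did not overlap Wistar, but GK-S-30 replicate 4 did. The other probe, A_44_P696994, was well above background everywhere: 6.90, 6.30, 6.17, 6.79 and 6.70 in Wistar, 5.82, 5.90, 6.10, 5.59 and 5.30 in the sham group, and 5.74, 5.50, 6.06, 6.02 and 6.28 after bypass. Both probes had lower means in the GK groups than in Wistar. With A_44_P410016 the GK means rest on 4 dim arrays of 5 each, so the GK groups are not ranked by it: bypass minus sham was 0.42 over all arrays but -0.17 within slide C. Differences from Wistar were -1.07 (SE 0.22) and -0.83 (SE 0.19) in GK-Sham-PF, and -0.66 (SE 0.22) and -0.65 (SE 0.19) in GK-S-30, for A_44_P410016 and A_44_P696994. Within slide B the sham differences were -1.23 and -0.96, and with normexp they shrank to -0.17 and -0.38 over all arrays, as did those of bypass, to -0.07 and -0.29.

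Ifit3 works in complex with Ifit1 and Ifit2. In Wistar its levels were 3.63, 4.11, 4.00, 4.04 and 3.95, well above background on 5 of 5 arrays. In GK-Sham-PF they were 3.20, 3.04, 2.94, 2.78 and 2.93, on none of them well above background. With each sham array set no lower than its lowest signal well above background, Wistar was 1.63-fold higher. This value is for all arrays in the main processing, and the differences within slide B and with normexp, given below, are smaller. In GK-S-30 replicates 3 and 4 had 3.68 and 3.71 and were well above background, whereas replicates 1, 2 and 5 had 1.91, 1.09 and 1.12 and were not. GK-S-30 therefore fell into arrays near the Wistar range and arrays at the bottom of the scale, and its mean of 2.30 ± 1.32 (SD, n = 5) describes neither. The log2 difference of GK-Sham-PF from Wistar was -0.97 (SE 0.44), with -0.57 within slide B and -0.12 with normexp. That of GK-S-30 from GK-Sham-PF was -0.67 (SE 0.44), and -1.35 within slide C.

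Oas1a makes the short oligoadenylates that activate the ribonuclease RNase L. Wistar arrays had 13.59, 13.39, 13.49, 13.58 and 14.01. GK-Sham-PF had 12.57, 11.89, 12.80, 12.54 and 12.43, and GK-S-30 had 12.95, 13.20, 13.16, 13.40 and 12.86. Sham arrays were below all others, and GK-S-30 lay between the other groups, touching Wistar only through its replicate 4. Means were 13.61 ± 0.24 (SD, n = 5), 12.45 ± 0.34 and 13.11 ± 0.21. The log2 difference was -1.17 (SE 0.16) for GK-Sham-PF versus Wistar, 0.67 (SE 0.16) for GK-S-30 versus GK-Sham-PF and -0.50 (SE 0.16) for GK-S-30 versus Wistar, and within slides B and C the first 2 were -1.17 and 0.59.

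Oasl, an oligoadenylate synthetase-like gene, differed least from Wistar among the 7 tested members. Its levels were 7.61, 7.58, 7.02, 8.04 and 7.84 in Wistar, 7.58, 7.31, 7.30, 7.20 and 6.69 in the sham group, and 7.38, 7.93, 7.69, 7.56 and 7.32 in GK-S-30. All 3 groups overlapped. The lowest value of its group came from the dim array in both Wistar (replicate 3) and GK-Sham-PF (replicate 5). The log2 difference was -0.40 (SE 0.19) for GK-Sham-PF versus Wistar and 0.36 (SE 0.19) for GK-S-30 versus GK-Sham-PF, with -0.21 and 0.71 within slides. GK-S-30 versus Wistar was -0.04 (SE 0.19), and 0.50 (SE 0.48) with slide as a block, so its sign is not settled.

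Mx1 and Mx2, which trap viral nucleocapsids, did not reach the detection filter, since neither was well above background on all arrays of any group. Mx1 had 3.01, 3.82, 3.75, 3.62 and 4.15 in Wistar, 4.07, 3.84, 3.86, 3.33 and 2.67 in the sham group, and 3.65, 3.54, 4.62, 4.40 and 4.09 in GK-S-30. It was well above background on 2, 2 and 4 of the 5 arrays, and the groups overlapped. Mx2 had 2.82, 3.06, 2.76, 3.13 and 2.94 in Wistar, on no array well above background, 4.12, 3.59, 4.00, 3.15 and 1.36 in the sham group, and 4.17, 3.57, 5.15, 4.88 and 3.81 in GK-S-30, with 2 and 3 of 5 arrays well above background. All 5 GK-S-30 arrays were above all 5 Wistar arrays for Mx2, with a log2 difference of 1.37 (SE 0.45), but with dim arrays in both groups its size is uncertain, and with normexp it was 0.21. The difference of Mx1 between GK-Sham-PF and Wistar was -0.12 (SE 0.29) over all arrays but 0.91 within slide B, so it too has no settled sign.

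**Figure D2:**
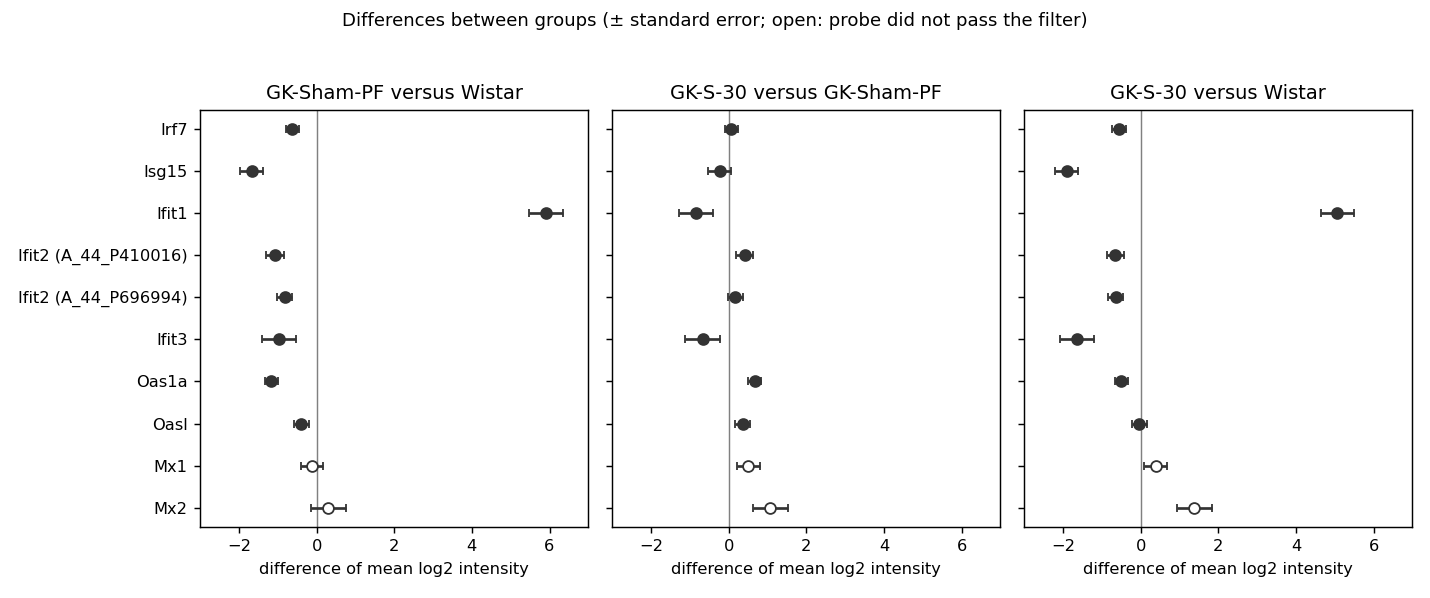
Difference of mean log2 intensity (horizontal axes) with its standard error for each of the 10 probes in the 3 comparisons; open points are the 2 probes that did not pass the detection filter. Ifit1 lies at 5.91 and 5.07 against Wistar, most other probes lie below 0 against Wistar, and for bypass versus sham the differences run from -0.84 (Ifit1) to 1.07 (Mx2).

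The detection filter, which asked that all arrays of some group be well above background, kept 8 probes of 7 genes and dropped Mx1 and Mx2. Between GK-Sham-PF and Wistar, 1 of the 7 genes was past an adjusted p of 0.05 in limma as higher and 4 as lower, while 3.94% and 4.43% of all 13013 tested genes were. For 6 of the 7 the arrays of the groups did not overlap, against 9.68% of tested genes. For bypass versus sham the counts were 1 higher and 0 lower, against 4.93% and 4.17% of tested genes, and 1 without overlap, against 8.99%. Between GK-S-30 and Wistar they were 1 higher and 5 lower, against 12% and 13.5%, and 2 without overlap, against 19.5%. The median difference of the 7 genes was -0.83, 0.07 and -0.56 in these comparisons, and that of all tested genes 0.01, -0.03 and -0.02. Nothing is read from these counts, because the genes were chosen on the same levels and the comparisons share groups.

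Within groups, arrays with a high level of one member often had a high level of another. After each group mean was subtracted, the 8 probes that passed the filter gave 28 pairs over 15 arrays, of which 26 had a positive Pearson correlation. The median r was 0.32, ranging from -0.47 (Oasl with Ifit2 probe A_44_P410016) to 0.76 (Irf7 with Isg15); without the 2 dim arrays these were -0.13 and 0.88. Irf7 and Oas1a had r = 0.70, as did Isg15 and Oasl, and the neighbours Ifit1 and Ifit3 had 0.68. The 2 Ifit2 probes did not track each other, with r = 0.01 over 15 arrays and 0.50 without the 2 dim arrays. Probes of one array share its RNA and its signal, so these values are a description; without the 2 dim arrays the median r was 0.35. GK-S-30 replicates 3 and 4, both on slide D, were the highest of their group for Ifit1, Ifit3, Isg15, Mx1 and Mx2.

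**Figure D3:**
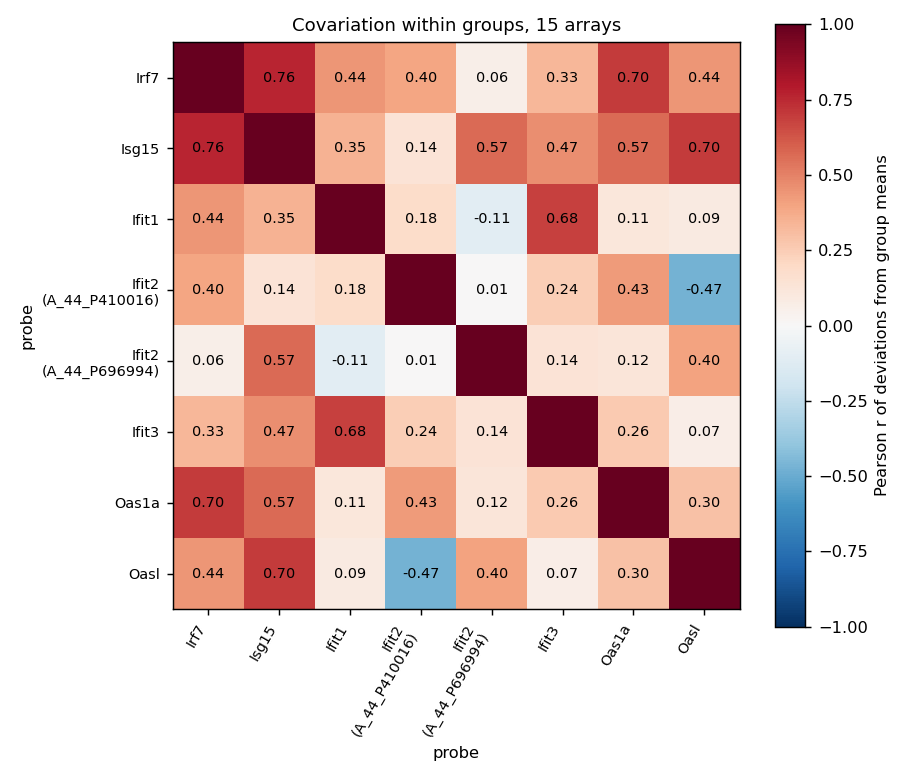
Pearson r (colour and number) between probes of the 8 that passed the filter, over 15 arrays after subtraction of each group mean; both axes list the probes. The warmest cells off the diagonal are Irf7 with Isg15 (0.76), Irf7 with Oas1a and Isg15 with Oasl (0.70), and Ifit1 with Ifit3 (0.68).

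The genes around these members were taken from 5 lists of interferon biology with 139 genes, of which 100 were on the array and 91 passed the filter. No member is in these lists, and their genes were tested with limma, with p-values adjusted over all tested probes. Between GK-Sham-PF and Wistar, 7 of the 91 rose and 6 fell (7.69% and 6.59%, against 3.94% and 4.43% of all genes), with a median of -0.02. For bypass versus sham, 0 rose and 5 fell (5.49%, against 4.17%), with a median of -0.13; at an unadjusted p under 0.05 limma had 4 higher and 19 lower, and the methods' Tukey comparison with Benjamini-Hochberg adjustment had 0 and 3. Between GK-S-30 and Wistar, 10 rose and 17 fell (11% and 18.7%, against 12% and 13.5%), with a median of -0.10. With slide as a block the totals were 1, 1 and 0 of 91 (limma; 10, 19 and 16 at an unadjusted p under 0.05), and no called change of a named gene turned sign. Slide and group cannot be told apart on slides A and D, which hold 1 group each. Leaving out 1 array moved the sham count from 13 to 7 without Wistar replicate 5, to 6 without GK-Sham-PF replicate 2 and to 8 without its replicate 3. The bypass versus sham count of 5 became 10 without Wistar replicate 3, 11 without GK-S-30 replicate 4, 2 without GK-Sham-PF replicate 1 or without GK-S-30 replicate 1 or 5, 3 without GK-Sham-PF replicate 3, and 16 (2 higher, 14 lower) without both dim arrays.

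**Figure D4:**
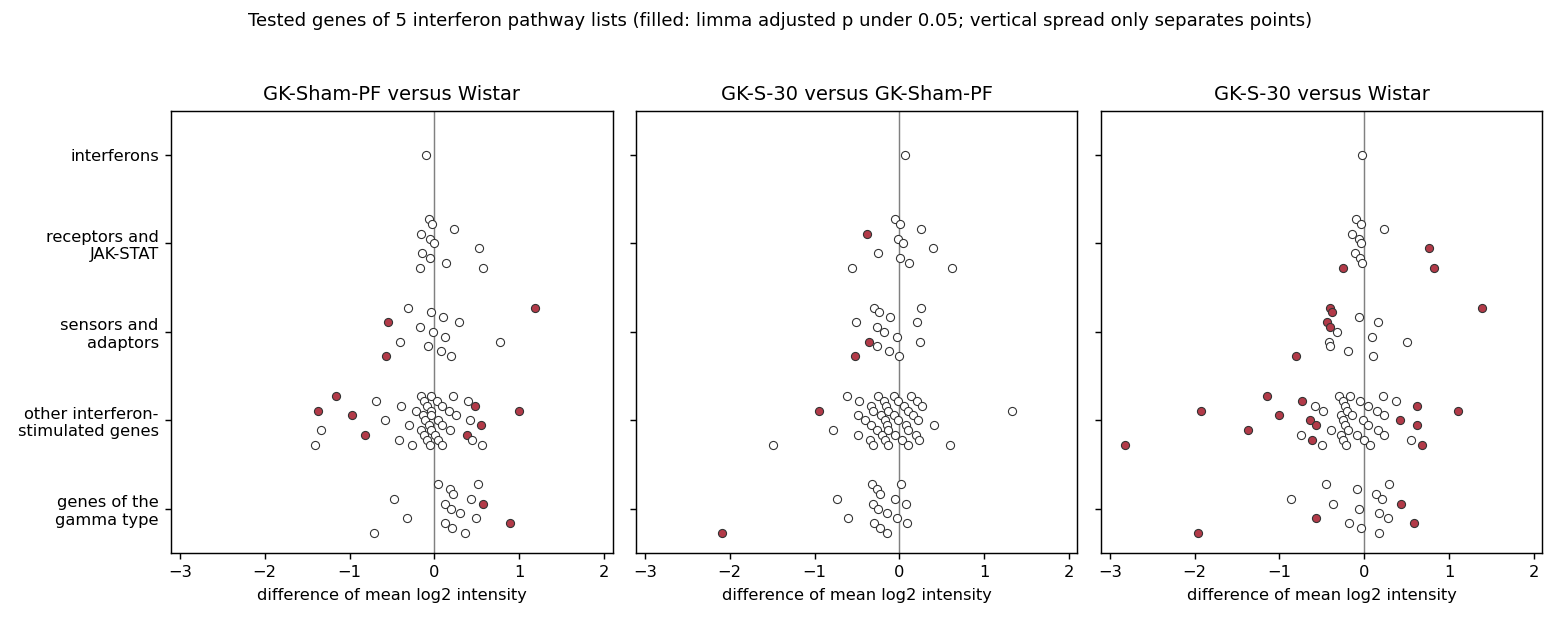
Difference of mean log2 intensity (horizontal axes) of the 91 tested genes of the 5 interferon lists, 1 row per list and 1 panel per comparison; filled points have a limma adjusted p under 0.05, and vertical spread only separates points. Calls lie on both sides of 0 against Wistar (7 higher and 6 lower for sham, 10 higher and 17 lower for bypass), and the 5 calls of bypass versus sham lie below 0.

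Interferon genes themselves were hardly seen. Of 6 on the array only Ifna4 was tested, at mean levels of 4.02 in Wistar, 3.93 in the sham group and 4.00 after bypass, and its differences of -0.10, 0.07 and -0.03 did not pass the test in limma (adjusted p = 0.916, 0.928 and 0.965). Ifnb1, the gene of interferon beta, was well above background on 1 array each of Wistar and GK-Sham-PF and on none of GK-S-30. Ifng, Ifna5, Ifne and Ifnk did not pass the filter either, so ligand changes were not measurable at this signal.

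Among receptors and the JAK-STAT factors, 12 of 13 genes on the array were tested. In GK-Sham-PF versus Wistar 0 of 12 were called in limma (2 at an unadjusted p under 0.05, and 0 by the adjusted Tukey comparison). Stat2, a factor of type I signalling, was higher in GK-S-30 than in Wistar by 0.76 (SE 0.26, limma adjusted p = 0.0442), a call lost in 15 of 26 settings, 11 of them leaving out 1 array. Also higher was the feedback inhibitor Socs1, by 0.83 (SE 0.17, adjusted p = 0.00287). Pias1, another inhibitor of the pathway, fell in GK-S-30 relative to Wistar by 0.26 (SE 0.08, limma adjusted p = 0.0289), a call lost on leaving out any of 5 arrays. Ifnar1, Ifngr1, Ifngr2, Il10rb, Jak1, Jak2, Irf9 and Socs3 passed the test in no comparison, and Ifnlr1, a chain of the type III receptor, did not pass the filter.

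The sensors and their adaptors went in both directions. Rig1 (Ddx58 in the files), which encodes the RNA sensor RIG-I, rose from a Wistar range of 7.23 to 8.38 to 8.86 to 9.38 in GK-Sham-PF and 8.75 to 9.75 in GK-S-30, without overlap. The differences were 1.18 (SE 0.22, limma adjusted p = 0.00226) and 1.38 (adjusted p = 0.000277), and a second Rig1 probe gave 1.54 and 1.75. Ifih1, which encodes the sister sensor MDA5 and was picked out after its values were seen, went the other way, with -0.54 (SE 0.14, limma adjusted p = 0.0212) and -0.80 (adjusted p = 0.00055). Ikbke, a kinase that activates IRF3 and IRF7, fell in GK-Sham-PF by 0.57 (SE 0.16, limma adjusted p = 0.0368), a call lost in 14 of 26 settings, 8 of them leaving out 1 array. Its partner kinase Tbk1 and the factor Irf3 had their lowest means after bypass. All GK-S-30 arrays were below those of both other groups for Irf3, whereas for Tbk1 they overlapped both. For Irf3 the difference from GK-Sham-PF was -0.36 (SE 0.08, limma adjusted p = 0.0113) and from Wistar -0.41, and for Tbk1 it was -0.52 (SE 0.13, adjusted p = 0.0254) and -0.44, but a dimmer Tbk1 probe gave -0.12 and 0.12, and the calls were lost on leaving out any of 5 and 3 arrays. Of 15 sensors and adaptors tested, 1 rose and 2 fell in GK-Sham-PF versus Wistar (6.67% and 13.3%, against 3.94% and 4.43% of all genes). In GK-S-30 versus GK-Sham-PF 0 rose and 2 fell (13.3%, against 4.17%), with 0 higher and 4 lower at an unadjusted limma p under 0.05. In GK-S-30 versus Wistar 1 rose and 5 fell (6.67% and 33.3%, against 12% and 13.5%). Dhx58 (-0.40) and Tlr3 (-0.38), named after their values were seen, made up the 5 with Ifih1, Irf3 and Tbk1.

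Further interferon-stimulated genes, 46 tested, were called in both directions against Wistar. Usp18, the protease that removes ISG15 from its targets and restrains type I signalling, fell in GK-Sham-PF by 1.37 (SE 0.29, limma adjusted p = 0.0073) and after bypass by 1.14 (adjusted p = 0.0102). Eif2ak2, the RNA-activated kinase PKR, fell by 1.16 (SE 0.17, limma adjusted p = 0.000288) and 1.00 (adjusted p = 0.00051), although a second probe gave -0.17 and -0.11. Cmpk2, a mitochondrial nucleotide kinase encoded next to Rsad2, stepped down from 8.63 in Wistar to 7.66 in the sham group and 6.70 after bypass, and each step passed the test in limma (adjusted p = 0.0327 and 0.0364), although the first call was lost in 11 of 26 settings and the second in 13, with 7 and 8 of these leaving out a single array. Rsad2, the antiviral enzyme viperin, fell in GK-S-30 relative to Wistar by 2.82 (SE 0.51, limma adjusted p = 0.000928), from a range of 10.28 to 11.66 to one of 6.60 to 9.45. Ifit1bl, which overlaps Ifit1 in the annotation, fell in GK-S-30 relative to Wistar by 1.37 (SE 0.28, limma adjusted p = 0.00219), the opposite direction to Ifit1, and Oas1i, a near relative of Oas1a, fell in GK-Sham-PF by 0.82 (limma adjusted p = 0.0439), a call lost in 15 of 26 settings, 10 of them leaving out 1 array.

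Other genes of that list were higher in GK rats. Ifi27, a mitochondrial and nuclear membrane protein, rose by 1.00 (SE 0.14, limma adjusted p = 0.000299) in GK-Sham-PF and by 1.10 (adjusted p = 6.3e-05) in GK-S-30. Its relative Ifi27l2b rose by 0.48 (SE 0.08, limma adjusted p = 0.00185) and 0.62, with 0.17 and 0.27 on a dimmer probe. Lgals9, the lectin galectin 9, rose by 0.55 (SE 0.14, limma adjusted p = 0.0257) and 0.43, calls lost on leaving out any of 5 and 7 arrays. The exonuclease gene Isg20, named after its values were seen, rose by 0.39 in GK-Sham-PF (limma adjusted p = 0.0491). The membrane proteins Ifitm3 and Ifitm7, which hinder viral entry, were higher in GK-S-30 than in Wistar by 0.68 (SE 0.14, limma adjusted p = 0.00232) and 0.62 (adjusted p = 0.00202). In counts, 4 rose and 4 fell in GK-Sham-PF versus Wistar (8.7% each, against 3.94% and 4.43% of all tested genes). For bypass versus sham 0 rose and only Cmpk2 fell (0% and 2.17%, against 4.93% and 4.17%). At an unadjusted limma p under 0.05 there were 2 higher and 9 lower for bypass versus sham. In GK-S-30 versus Wistar 5 rose and 9 fell (10.9% and 19.6%, against 12% and 13.5%). The medians were -0.04, -0.13 and -0.21 in these 3 comparisons.

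Genes best known for their response to interferon gamma, 17 tested, included 2 that rose in both GK groups relative to Wistar and 1 that fell after bypass relative to both other groups. Psmb9 and Psmb8, subunits of the immunoproteasome, rose in GK-Sham-PF by 0.89 (SE 0.10, limma adjusted p = 1.81e-05) and 0.57 (SE 0.14, adjusted p = 0.0206), and in GK-S-30 by 0.58 (adjusted p = 0.000543) and 0.43 (adjusted p = 0.0383). The chemokine gene Cxcl10, which draws T cells, had mean levels of 8.33 ± 0.45 (SD, n = 5) in Wistar, 8.46 ± 0.34 in the sham group and 6.37 ± 0.52 after bypass, whose arrays were all below those of the other groups. Its fall against GK-Sham-PF of 2.09 (SE 0.26, limma adjusted p = 0.000225) was also seen within slide C, at -2.17 (limma adjusted p = 0.0261 with slide as a block). With that block the Psmb9 difference of sham from Wistar was 0.89 (limma adjusted p = 0.0326), but those of bypass from Wistar lost their call, Cxcl10 at -1.76 (adjusted p = 0.24) and Psmb9 at 0.41 (adjusted p = 0.464). The Psmb8 calls were lost on leaving out any of 4 arrays for sham and any of 6 for bypass. In GK-Sham-PF versus Wistar 2 of the 17 rose and 0 fell (0 lower at an unadjusted p under 0.05 too, in limma), with a median of 0.21. For bypass versus sham 0 rose and Cxcl10 fell (limma; 0 higher and 4 lower at an unadjusted p under 0.05). In GK-S-30 versus Wistar 2 rose and 2 fell, Cxcl10 and the GTPase gene Igtp (-0.57, named after its values were seen). Shares of the list called higher and lower were 11.8% and 0% for sham versus Wistar, against 3.94% and 4.43% of all tested genes. For bypass versus sham they were 0% and 5.88%, against 4.93% and 4.17%, and for bypass versus Wistar 11.8% and 11.8%, against 12% and 13.5%.

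The letters of the ISRE were also counted in the wider lists. They were in the window of 26 of 56 further interferon-stimulated genes (46.4%) and 11 of 20 genes of the gamma type (55%), but in 1 of 12 receptor and JAK-STAT genes and 2 of 14 sensors. Of 34 tested list genes with the ISRE, 5 were called higher and 10 lower in GK-S-30 versus Wistar (14.7% and 29.4%), and of 42 without it, 3 and 5 (7.14% and 11.9%). Over all tested genes with a promoter entry, 18.5% of 303 with the ISRE and 13.1% of 9779 without it were called lower. For bypass versus sham the shares called lower ran the other way, at 2.94% of list genes with the ISRE and 7.14% without it, and over all genes at 3.3% and 4.02%. These shares are a description with no test, and letters in a window say nothing of binding.

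The 10 tested genes outside the members with the profile most like theirs over the 15 arrays were found by Pearson r with the mean standardized level of the 7 tested members. Usp18 was the closest with r = 0.929, and Oasl2, a further oligoadenylate synthetase-like gene, had 0.864. The others were Birc3, an inhibitor of apoptosis and ubiquitin ligase (0.89), Zfp513, Pgap6, the deubiquitinase gene Usp32, the lipid phosphatase gene Plpp1, the glutathione transferase gene Gstm5, the aspartoacylase gene Aspa and Mppe1, down to 0.856. Over the same arrays after removal of the group means, r was 0.922 for Oasl2 and 0.79 for Usp18, and 0.639 to 0.782 for the rest. The difference between Wistar and the GK groups enters the values over all arrays, and no p is attached.

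Some cell type markers also differed between the groups. Of 11 T and NK cell genes tested, 6 fell in GK-S-30 relative to GK-Sham-PF in limma (54.5%, against 4.17% of all tested genes). The summed intensity of the list (in units of 1000) was 7.46 to 9.84 in GK-S-30. It was 11 to 14.1 in the sham group and 10.1 to 13.9 in Wistar. Of these 6 calls, those of Gzmb and Klrd1, genes of cytotoxic cells, were lost on leaving out any of 11 arrays, and that of Cd3g on leaving out any of 8. Those of Cd3d (-0.66), Cd3e (-0.76) and Cd8b (-0.87) held on leaving out any 1 array, and were lost in 2, 2 and 1 of 26 settings. For GK-S-30 versus Wistar 0 of the 11 rose and 4 fell (36.4%, against 13.5%). Gzmb and Klrd1 were higher in GK-Sham-PF than in Wistar by 1.06 each. Of 9 smooth muscle genes 5 rose in GK-S-30 relative to GK-Sham-PF (55.6%, against 4.93% of all tested genes). Their list had a summed intensity of 172 to 216 after bypass, 55.1 to 129 in the sham group and 66.4 to 114 in Wistar. Of 10 epithelial genes 0 were called for sham versus Wistar or for bypass versus sham (limma; 1 and 0 at an unadjusted p under 0.05). For bypass versus Wistar 0 rose and 1 fell (10%, against 13.5% of all tested genes), which was Fabp2 (-0.28, SE 0.08, limma adjusted p = 0.016). Summed intensities of the epithelial list were 846 to 1070 over all arrays, so the markers of the labelled tissue were present throughout. Against Wistar, both GK groups were higher in the B cell receptor genes Cd79a and Cd79b and in the granulocyte genes S100a8 and S100a9. The calls of Cd79a and Cd79b for sham versus Wistar were lost in 7 and 10 of 26 settings, 4 of them for each gene leaving out 1 array. S100a8 was well above background on 1 of 5 Wistar arrays. The myeloid integrin gene Itgam differed by -2.08 and -1.75 (limma adjusted p = 6.43e-06 and 2.59e-05). Of 11 myeloid genes, 2 rose and 1 fell for sham versus Wistar (18.2% and 9.09%, against 3.94% and 4.43% of all genes). For bypass versus Wistar 2 rose and 4 fell (18.2% and 36.4%, against 12% and 13.5%). These 4 were Itgam, Lyz2 (-0.51), Fcgr3a (-0.59) and Cd68 (-0.45, a call lost on leaving out any of 6 arrays). The summed intensity of the 3 B cell genes tested was 9.82 to 16.3 in Wistar. It was 12.9 to 16.4 in the sham group and 12.9 to 26.7 after bypass. Cd79a and Cd79b, at mean log2 levels of 4.89 and 6.66 in Wistar, are a small part of this sum, which is mostly Sdc1. The sum of 11 myeloid genes was 53.3 to 69.9, 45.8 to 61.2 and 34.1 to 50.1 in these groups. Most of it came from Lyz2, at a mean log2 level of 15.8 in Wistar. Sums of this kind follow their brightest probes and do not measure cell numbers. The B cell markers Ms4a1 and Cr2, the T and NK markers Cd2 and Ncr1 and the plasmacytoid dendritic cell marker Siglech did not pass the filter. The part of these cell types in the interferon results was not tested.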

How the data were processed

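RNA of 15 intestinal samples (5 Wistar, 5 GK-Sham-PF, 5 GK-S-30) was hybridised to one-colour Agilent rat arrays. Per the file headers, the deposited intensities are processed signals of Feature Extraction 10.7.3.1, corrected for background. The authors also deposited a table of log2 values, quantile-normalized and not centred by gene; it served as an alternative. Here, control spots and outlier flags were removed, spots of a probe averaged, log2 taken and arrays quantile-normalized in R 4.3.3. Probes well above background on all 5 arrays of any group were kept, and 17018 named ones were fitted over 15 arrays with limma 3.58.1 and Benjamini-Hochberg adjustment. A gene is its brightest tested probe. Precision is limited by the number of arrays.

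The members and lists were chosen with earlier results of these data known. Named were all members, the called receptor genes, the 5 largest calls in each direction over the sensor, interferon-stimulated and gamma lists together, the 10 genes of most similar profile, and called or absent markers. Gene names came from RefSeq by accession for 17541 probes, and 1325 kept the file's name. Alternatives were 75th percentile scaling, normexp, flags kept, no filter, slide or replicate blocks, the methods' Tukey comparison, and leaving out arrays. The fit was tested on simulated data. Some genes of the lists are counted but not reported here by name.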

Additional observations from a re-analysis of the deposited data

Results flagged for a closer look

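In each group of 5 arrays the highest and the lowest value were examined for their gap to the nearest other array as a share of the group's range, with a critical value of 0.71. Of 159 groups of 53 probes, 16 (10.1%) were past it, where chance flags about 1 in 20 groups; among the members it was 1 of 30.

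The member was Ifit1, where Wistar replicate 2 stood at 3.02 against 1.08 for the next array (0.979 of the range), none of the 5 being well above background. Among the interferon genes, Psmb9 was set apart in GK-Sham-PF replicate 2 as lowest (0.718) and in GK-S-30 replicate 4 as highest (0.815). Eif2ak2 was lowest in Wistar replicate 3 (0.754), one of the dim arrays. Stat2 was set apart in all 3 groups, as lowest in Wistar replicate 3 (0.813) and, in the sham group, in replicate 5 (0.755), both dim arrays, and as highest in GK-S-30 replicate 3 (0.825).

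Among cell type markers, GK-Sham-PF replicate 1 was the highest array for the B cell genes Cd79a (0.736) and Cd79b (0.951). Wistar replicate 2 was highest for the granulocyte genes S100a8 (0.841, well above background on 1 of 5 arrays) and S100a9 (0.714). Cd3d was highest in Wistar replicate 3 (0.799), and Itgam lowest in GK-Sham-PF replicate 5 (0.756). Of the smooth muscle genes, Actg2 was highest in GK-Sham-PF replicate 4 (0.714), Tagln lowest in GK-S-30 replicate 1 (0.718) and Tpm2 highest in Wistar replicate 1 (0.757).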

How the results depend on the processing

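Counts of tested genes called were 1090 for sham versus Wistar, 1184 for bypass versus sham and 3311 for bypass versus Wistar, and counts of interferon list genes 13, 5 and 27. With slide as a fixed block (limma) they became 169, 263 and 215 genes and 1, 1 and 0 list genes, the last with 16 at an unadjusted p under 0.05, and 7 of 72 named calls were kept; the cause was not tested. The share of calls that were higher went from 54.1% to 67.3% for bypass versus sham and from 47.1% to 58.6% for bypass versus Wistar. Replicate numbers do not pair the samples (r of same-numbered deviations -0.291 to 0.202); with the replicate block the list counts were 8 for sham versus Wistar and 3 for bypass versus sham. The methods' Tukey comparison, unadjusted over genes, called 1913 and 2116 genes and 23 and 15 list genes in the first 2 comparisons, and after Benjamini-Hochberg adjustment 682 and 469 genes and 5 and 3 list genes. For bypass versus sham, normexp gave 9 list genes and leaving out the 2 dim arrays 16, and there the median correlation of the members was 0.349. Leaving out 1 array gave 6 to 16 list genes for sham versus Wistar, 2 to 11 for bypass versus sham, and 778 (without GK-Sham-PF replicate 2) to 1426 (without Wistar replicate 3) genes in the latter. Percentile scaling, kept flags, no filter, the deposited table and slide as a random block left all 6 counts within 1.5 times. Of the members, the near-background probes limit what can be said of Mx1, Mx2, Ifit3, Ifit2 probe A_44_P410016 and the Wistar level of Ifit1.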
